A study of Homo sapiens with 4 samples.

Results

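The receptors through which microglia read the colony-stimulating factors, with their ligands where these are made by the cells themselves, were measured as messenger RNA in human microglia-like cells with and without SHIP1. The set holds 9 genes of the 35605 in the files, chosen by name: CSF1R and its ligands CSF1 and IL34, the receptor subunits CSF2RA, CSF2RB, IL3RA and CSF3R, and the receptor kinases KIT and FLT3. The cells were iMGL, microglia-like cells differentiated in culture from the human pluripotent line WTC11, which is an established line. The genotypes were WT, left unedited, and S1KO, in which SHIP1 was knocked out. SHIP1 is an inositol 5-phosphatase and its gene is INPP5D. Each genotype had 2 libraries, and the labels name no other agent or allele. Both genotypes come from 1 parental line. The design text gives 2 clones per genotype but no label says which library came from which clone. The p-values therefore rest on the spread among 4 libraries, which may be technical in part.

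CSF1R is a receptor tyrosine kinase that CSF1 and IL34 both bind, and its signal is needed for the survival of microglia. SHIP1 removes the 5-phosphate from the lipid that PI3-kinase makes downstream of this receptor. The GM-CSF and IL-3 receptors pair a ligand-specific alpha chain, CSF2RA or IL3RA, with a shared beta chain, CSF2RB, which carries the signal through JAK2 and STAT5. CSF3R binds G-CSF and marks the granulocyte lineage, and KIT and FLT3 are CSF1R's closest relatives, used by progenitors, mast cells and dendritic cells.

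The promoters of the receptors are shown first because the transcription factors that act on the CSF1R promoter were among the genes measured. RefSeq (GRCh38.p14) promoters matched 6 of the 9 genes, with 8 promoters in all, and each sequence is the 250 bases before the transcript start, 5′ to 3′ on the strand of the gene. Capitals mark GAGGAA, the core letters of the site bound by PU.1, the myeloid factor encoded by SPI1. The CSF1R promoter next to the first coding exon lies at chr5:150086555-150086804 (minus strand), the distal one at chr5:150113366-150113615 (minus strand), the CSF2RA promoter at chrX:1268564-1268813 (plus strand) and the CSF3R promoter shown at chr1:36482914-36483163 (minus strand).
CSF1R proximal: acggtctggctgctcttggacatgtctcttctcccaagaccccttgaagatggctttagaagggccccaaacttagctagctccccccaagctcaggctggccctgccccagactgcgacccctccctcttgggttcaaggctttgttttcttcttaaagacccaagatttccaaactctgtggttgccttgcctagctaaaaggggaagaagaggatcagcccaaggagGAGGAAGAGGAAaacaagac
CSF1R distal: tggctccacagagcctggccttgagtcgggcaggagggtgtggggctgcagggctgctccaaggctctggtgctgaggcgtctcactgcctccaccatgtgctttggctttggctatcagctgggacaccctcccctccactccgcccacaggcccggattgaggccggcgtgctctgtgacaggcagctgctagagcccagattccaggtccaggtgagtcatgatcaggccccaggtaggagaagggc
CSF2RA: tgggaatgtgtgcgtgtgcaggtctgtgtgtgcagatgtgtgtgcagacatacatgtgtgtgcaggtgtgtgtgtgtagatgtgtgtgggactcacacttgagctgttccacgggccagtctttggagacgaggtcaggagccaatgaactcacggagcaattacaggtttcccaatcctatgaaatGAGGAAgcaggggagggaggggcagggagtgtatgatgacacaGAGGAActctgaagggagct
CSF3R: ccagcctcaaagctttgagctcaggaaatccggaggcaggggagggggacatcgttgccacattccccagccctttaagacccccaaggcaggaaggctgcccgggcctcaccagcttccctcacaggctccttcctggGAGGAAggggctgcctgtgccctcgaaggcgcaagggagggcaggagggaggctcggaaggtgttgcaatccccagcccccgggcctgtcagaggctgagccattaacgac
The proximal CSF1R promoter held GAGGAA in 2 adjacent copies starting 20 and 14 bases before the start, and TGTGGT, the core of a RUNX site, starting 71 bases before it. The CSF2RA promoter held GAGGAA starting 63 and 20 bases before the start, and the CSF3R promoter held it once, 111 bases before. The distal CSF1R promoter held no GAGGAA but 1 TGAGTCA, an AP-1 element (TGANTCA), 34 bases before the start. Searched on both strands, GAGGAA was in 4 of the 8 promoters and in 23.6% of all 34943 promoters of this length, TGTGGT in 1 of 8 and in 11%, and TGANTCA in 6.59% of all. The STAT element TTCNNNGAA, in 6.56% of all promoters, was found only in that of IL3RA among the 8. Letters alone show no binding.

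The libraries held 21516813 to 25927881 estimated counts. Mitochondrially encoded transcripts made up 14.20% of WT 1 and 18.90% of WT 2 by count, with 52.32% of S1KO 1 and 39.24% of S1KO 2. INPP5D, the edited gene, was at 355.6 and 440.9 CPM (counts scaled to a common library size, with TMM factors) in WT and at 81.0 and 97.6 CPM in S1KO. Of the defining microglial genes, C1QA stood at 184 to 454.3 CPM and P2RY12 at 11.46 to 36.63 CPM, while TMEM119 did not exceed 3.1 CPM and SALL1 had 5 counts in WT 1 and none elsewhere. The library WT 1 stood apart: the summed level of 12 mesenchymal markers was 3559 CPM there and 9.32 to 29.05 CPM in the others, with COL1A1 alone at 2709 CPM. The part of these mesenchymal and mitochondrial differences in the results was not tested.

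Per unit length, counting every transcript, CSF1R and CSF2RA were the most abundant of the 9 messages, and FLT3 and IL34 the least. The mean over the 4 libraries was 296.7 TPM (transcript abundance per length, scaled to a common total) for CSF1R, 264.5 TPM for CSF2RA and 115.6 TPM for CSF3R. It was 16.9 TPM for IL3RA, 8.42 TPM for CSF2RB and 7.39 TPM for CSF1, then 1.14 TPM for KIT, 0.31 TPM for IL34 and 0.17 TPM for FLT3. Neighbours in this order overlapped across libraries, except CSF3R with IL3RA and CSF1 with KIT. Of the chains that form the GM-CSF receptor, CSF2RA was above CSF2RB in every library.

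**Figure D1:**
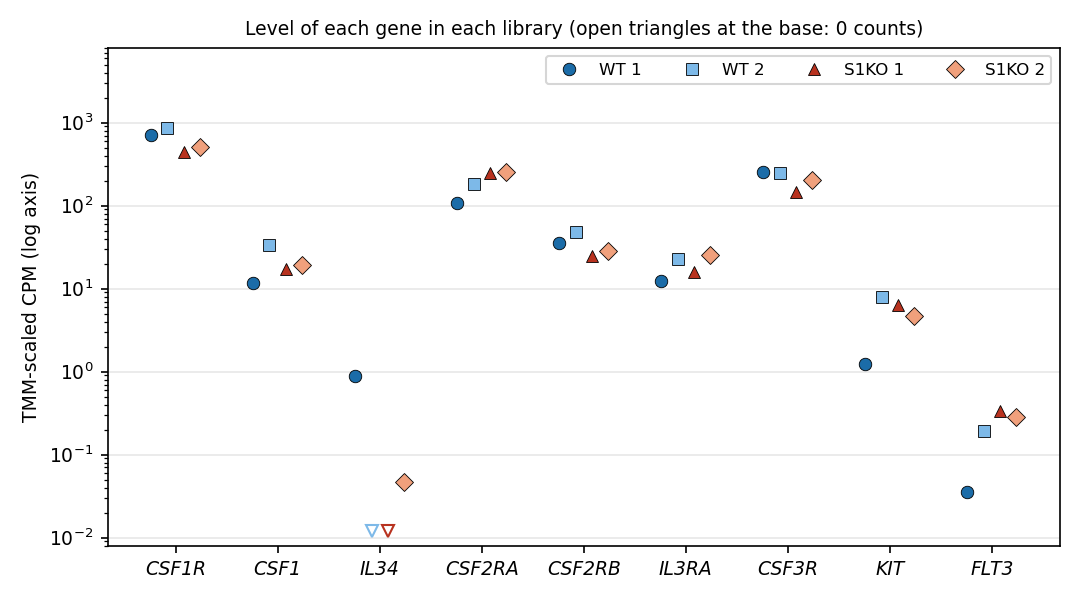
Level of each of the 9 genes (x axis) in each of the 4 libraries (points), as TMM-scaled CPM on a log axis; open triangles mark 0 counts. CSF1R lies at 443.1 to 860.4 CPM, and the S1KO points lie below the WT points for CSF1R, CSF2RB and CSF3R and above them for CSF2RA.

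Of the 9 genes, 7 passed the filter on low counts and none of the 7 was called at an adjusted p under 0.05 by edgeR's quasi-likelihood test, where 0.942% of the 15388 genes tested were called (0.793% higher and 0.149% lower in S1KO). At an unadjusted p under 0.05 there were 4 of 7, 3 with lower and 1 with higher values in S1KO, against 19.5% of all genes tested (9.2% lower and 10.3% higher). The groups stood apart without overlap in 4 of the 7, S1KO being the lower in 3 (25.7% of all genes) and the higher in 1 (26%). The median log2 difference, S1KO minus WT, was -0.29 over the 7 and -0.015 over all genes. DESeq2 called 1 of the 7, CSF1R, as lower, where it called 7.58% of all genes, 3.31% lower and 4.27% higher. With 2 libraries a group, an exact permutation test of a single gene cannot go below p = 0.33.

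**Figure D2:**
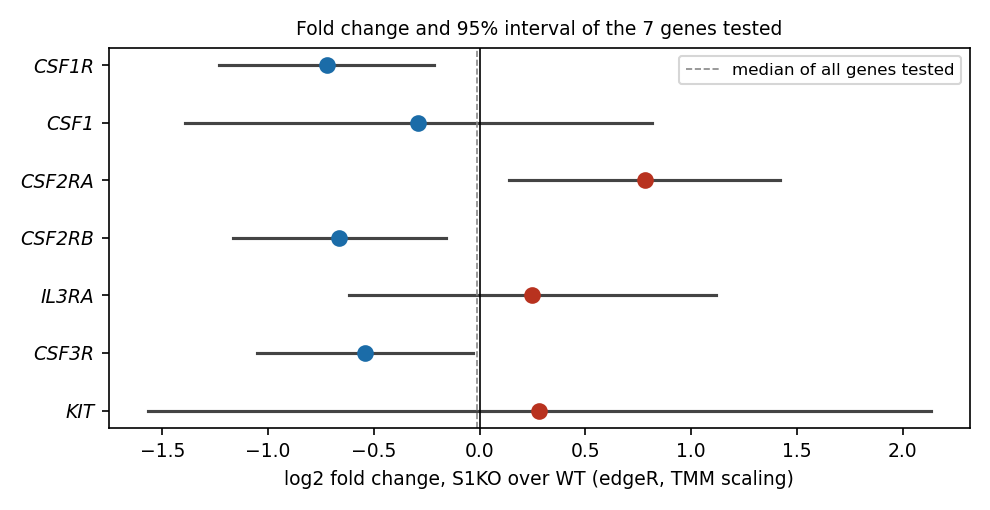
Log2 difference, S1KO minus WT, of the 7 genes tested (points), with its 95% interval (bars), from edgeR on TMM-scaled counts; the dashed line is the median of all 15388 genes at -0.015. The intervals of CSF1R, CSF2RB and CSF3R lie below 0, that of CSF2RA above 0, and those of CSF1, IL3RA and KIT include 0, before adjustment over all genes.

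CSF1R, the receptor for CSF1 and IL34 (ENSG00000182578, GRCh38 chromosome 5, 150053291 to 150113372, minus strand), had lower values in S1KO. Its level was 716.1 CPM in WT 1, 860.4 CPM in WT 2, 443.1 CPM in S1KO 1 and 511.9 CPM in S1KO 2. The 2 groups did not overlap, and the lowest WT library was well above the highest S1KO library. Means were 788.3 ± 102 CPM in WT and 477.5 ± 48.7 CPM in S1KO (SD; n = 2 per group), and the log2 difference was -0.72 (SE 0.21, 95% interval -1.23 to -0.21), with an adjusted p of 0.150 by edgeR. By DESeq2 it was -0.73 with an adjusted p of 0.00566. By edgeR it was -0.85 without WT 1, the library with the mesenchymal markers, and -0.58 without WT 2. It was -0.63 without S1KO 1 and -0.85 without S1KO 2. Each of these fits leaves a single library in a group, so only the difference is given. With mitochondrially encoded genes left out of the fit it was -0.73 (adjusted p 0.143, edgeR). In bulk RNA, fewer cells of a type and less RNA per cell cannot be told apart: the summed level of 17 microglia markers, CSF1R among them, was 5321 and 5320 CPM in WT and 3282 and 3537 CPM in S1KO. The markers did not all move with the sum. Of the 16 tested, 12 had log2 differences below 0 and 4 above, namely AIF1, MERTK, GPR34 and TMEM119. AIF1 was at 307.1 and 247.4 CPM in WT and 317.4 and 291.4 CPM in S1KO.

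The full-length coding transcript separated the groups with little spread within each, and held part of the difference. CSF1R-201, which starts at the distal promoter in the annotation and holds the whole reading frame, was at 535.9 and 534.7 CPM in WT and at 355.8 and 372.5 CPM in S1KO. It took 62.1% to 80.3% of the CSF1R counts. CSF1R-203, annotated as a target of nonsense-mediated decay and starting beside the proximal promoter, was at 105.4, 228.6, 45.9 and 89.3 CPM in the order WT 1, WT 2, S1KO 1, S1KO 2, also without overlap. The spread between the WT libraries in the whole gene therefore lay mostly in CSF1R-203, while CSF1R-201 was nearly equal in them. The 2 transcripts share most of their length, so how kallisto divided reads between them bears on these values. With protein-coding transcripts alone, the log2 difference of CSF1R was -0.56 (adjusted p 0.227, edgeR).

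The genes with a pattern most like that of CSF1R over the 4 libraries were PIP4P1, ATP1B3, ARGLU1, OSBPL3 and SERINC1. Likeness was the root mean square difference of centred log2 CPM, with a prior count of 2, over 4135 protein-coding genes of mean TPM at least 20. It was 0.0287 for PIP4P1 and 0.0538 for SERINC1, and 57 genes lay within 0.1 of CSF1R, so the order among them has little meaning with 4 libraries. PIP4P1, which encodes a lysosomal phosphatase of phosphatidylinositol 4,5-bisphosphate, was at 61.6, 77.1, 38.7 and 43.5 CPM in the same library order.

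CSF1, the secreted ligand of CSF1R (ENSG00000184371), was expressed by the cells themselves at a low level. It stood at 11.7 CPM in WT 1, 33.5 CPM in WT 2, 17.5 CPM in S1KO 1 and 19.5 CPM in S1KO 2. The groups overlapped, with the 2 WT libraries at the extremes on both sides. The log2 difference was -0.29 (SE 0.46, 95% interval -1.40 to 0.82, adjusted p 0.768, edgeR). It was -0.86 without WT 1 and 0.67 without WT 2, so its direction rests on which WT library is used. A single coding transcript held at least 91.6% of its counts in each library.

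IL34, the other ligand of CSF1R (ENSG00000157368), had 25 counts in WT 1, 0 in WT 2, 0 in S1KO 1 and 1 in S1KO 2, and was not tested. Only WT 1, the library with mesenchymal markers, was above the limit that a count of 0 allows. That limit, 3 counts in a library, was 0.0957 CPM in WT 2 and 0.202 CPM in S1KO 1 for counting error only. The ratio of CSF1R to CSF1 counts was 61.5 in WT 1, 25.7 in WT 2, 25.4 in S1KO 1 and 26.3 in S1KO 2. By counts, the receptor and its ligand thus stood in nearly 1 proportion outside WT 1. On TPM the ratio was less even there, at 74.8, 32.2, 27.8 and 33.5 in the same library order. On TPM over coding transcripts alone it was 36.3, 13.6, 17.5 and 17.4.

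CSF2RA, the alpha chain that binds GM-CSF (ENSG00000198223, chromosome X, 1268800 to 1310381, plus strand), was the only tested gene of the 7 with both S1KO libraries above both WT libraries. Its level was 107.7 CPM in WT 1, 183.0 CPM in WT 2, 246.8 CPM in S1KO 1 and 252.4 CPM in S1KO 2. The S1KO libraries were close to each other and the WT libraries were not. Means were 145.4 ± 53.2 CPM in WT and 249.6 ± 3.95 CPM in S1KO (SD; n = 2 per group), a 1.72-fold difference. The log2 difference was 0.78 (SE 0.27, 95% interval 0.14 to 1.42; adjusted p 0.195, edgeR). It was 0.45 without WT 1 and 1.22 without WT 2. With an offset for effective length it was 1.43 (adjusted p 0.0763), and with limma it was 1.40 on TPM rescaled without mitochondrial genes (adjusted p 0.0923) and 0.49 on log2(TPM + 1) (adjusted p 0.408). On TPM the groups overlapped, at 167.8, 275.2, 255.7 and 359.2 TPM in the same order.

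CSF2RB, the beta chain shared by the GM-CSF, IL-3 and IL-5 receptors (ENSG00000100368, chromosome 22, 36913628 to 36940449, plus strand), had lower values in S1KO. It was at 35.8 CPM in WT 1, 48.1 CPM in WT 2, 24.9 CPM in S1KO 1 and 28.1 CPM in S1KO 2. All S1KO values lay below all WT values. Means were 41.9 ± 8.71 CPM in WT and 26.5 ± 2.26 CPM in S1KO (SD; n = 2 per group), with a log2 difference of -0.66 (SE 0.21, 95% interval -1.17 to -0.16; adjusted p 0.173, edgeR). Without WT 1 it was -0.86, and without WT 2 it was -0.43. A single coding transcript, CSF2RB-202, held at least 98.6% of its counts in every library.

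IL3RA, the alpha chain that binds IL-3 (ENSG00000185291), lies beside CSF2RA in the pseudoautosomal region, of which the files list 1 copy. It was at 12.4 CPM in WT 1, 22.5 CPM in WT 2, 15.7 CPM in S1KO 1 and 25.8 CPM in S1KO 2. The groups overlapped almost entirely. The log2 difference was 0.25 (SE 0.36, 95% interval -0.62 to 1.12; adjusted p 0.746, edgeR), and it was -0.11 without WT 1 and -0.17 without S1KO 2. Its coding transcript IL3RA-201 was at 6.09 to 9.01 CPM and IL3RA-202, the more variable of the pair, at 5.42 to 16.3 CPM.

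Within each library the alpha chain of the GM-CSF receptor outnumbered the beta chain by more in S1KO than in WT. The ratio of CSF2RA to CSF2RB counts was 3.01 in WT 1, 3.80 in WT 2, 9.92 in S1KO 1 and 8.99 in S1KO 2. The groups lay far apart relative to the spread in each, at 3.41 ± 0.56 in WT and 9.46 ± 0.66 in S1KO (SD; n = 2 per group), a 2.79-fold difference. A ratio within a library does not depend on how libraries are scaled, but it shows unequal change only, and it was chosen after the values were seen. Leaving out any 1 library gave log2 differences of 1.31 to 1.65, against 1.48 with all 4. On TPM over coding transcripts alone the ratio was 7.71, 9.44, 23.9 and 21.1, a 2.63-fold difference. No test was made on it, since 2 against 2 cannot go below p = 0.33 by exact permutation.

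The other receptor ratios sorted the same chains. IL3RA to CSF2RB counts stood at 0.348 and 0.468 in WT and 0.631 and 0.918 in S1KO, a 1.89-fold difference without overlap. CSF1R to CSF2RB counts stood at 20.02 and 17.9 in the WT libraries against 17.8 and 18.2 in the S1KO libraries. These receptors had nearly 1 proportion in 3 libraries. CSF3R to CSF1R counts, at 0.358, 0.291, 0.326 and 0.398, overlapped. On TPM over all transcripts these last ratios did not overlap, with CSF1R to CSF2RB at 37.6 and 34.7 in WT and 32.1 and 33.4 in S1KO. For CSF2RA to CSF1R, compared per length over coding transcripts, the TPM ratio in WT was 0.422 and 0.692, that in S1KO 1.36 and 1.30. Coding CSF2RA was thus below coding CSF1R in both WT libraries and above it in both S1KO libraries.

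**Figure D3:**
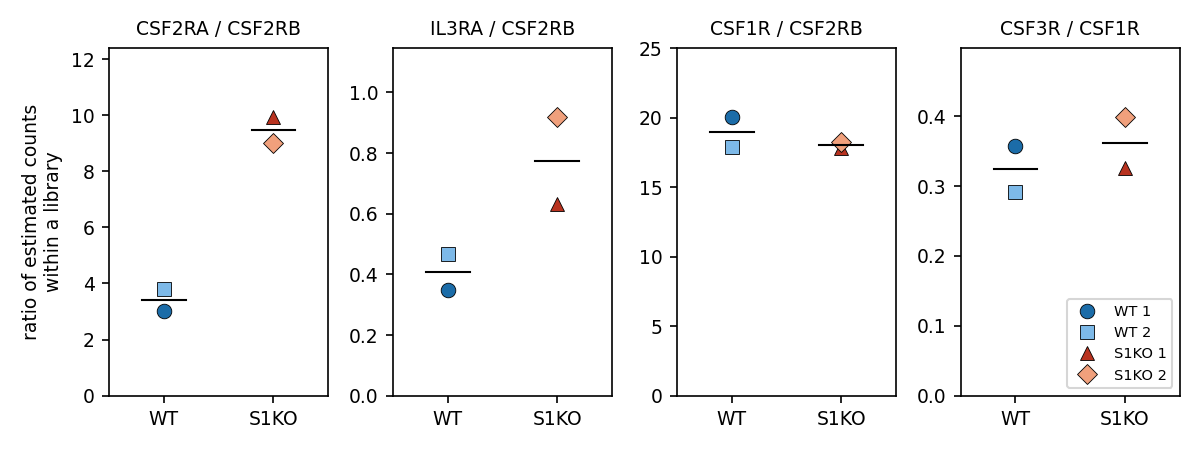
Ratio of estimated counts of 2 receptor genes within each library (y axis, each panel from 0) by genotype (x axis), with the mean of each group as a line. The CSF2RA to CSF2RB ratio is 3.01 and 3.80 in WT and 8.99 and 9.92 in S1KO, while CSF1R to CSF2RB and CSF3R to CSF1R overlap between the groups.

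The transcripts behind the CSF2RA total also differed between the groups. CSF2RA-209, a coding transcript with an extra exon in its 5′ leader (chrX:1282409-1282560, 152 bases), took 15.23% of CSF2RA counts in WT 1, 15.01% in WT 2, 23.53% in S1KO 1 and 31.17% in S1KO 2. Its Wilson intervals at 95%, which cover counting error only, were 14.00 to 16.56% and 14.11 to 15.96% in WT, and 22.19 to 24.93% and 29.95 to 32.42% in S1KO. In level it stood at 16.4, 27.5, 58.1 and 78.7 CPM in the same order. None of the 122 stretches of 31 bases in that exon occurs in a transcript of another gene. The coding transcripts CSF2RA-205, CSF2RA-206 and CSF2RA-208, which lack it, summed to 65.8 and 104.6 CPM in WT and 79.3 and 75.6 CPM in S1KO. Those 3 summed overlapped between the groups. CSF2RA-204, a coding transcript that also lacks the exon and has another last exon, did not overlap, at 11.6 and 18.8 CPM in WT against 31.6 and 31.3 CPM in S1KO.

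CSF2RA-211, a short processed transcript not annotated as coding, held 10% or more of the CSF2RA counts only in S1KO 1. It was named through its high value there, so its unequal levels are no independent evidence. CSF2RA-211 was at 2.51 CPM in WT 1, 3.22 CPM in WT 2, 40.4 CPM in S1KO 1 and 22.0 CPM in S1KO 2. In GENCODE 29, 126 of its bases lie in no other CSF2RA transcript and separate it from the coding forms. Of the 96 stretches of 31 bases in them, 29 (30.2%) also occur in transcripts of 599 other genes. CSF2RA-213, at 2.54 and 5.28 CPM in WT and 18.0 and 22.8 CPM in S1KO, has 350 bases of its own, of which 60.3% of the 31-base stretches occur in 3687 other genes. Reads from such shared stretches elsewhere can be assigned to these 2 transcripts, and their part in the result was not tested. Without both, CSF2RA was at 102.7, 174.6, 188.6 and 207.8 CPM, still without overlap, and the log2 difference was 0.52 (adjusted p 0.349, edgeR). The main coding forms left in this sum hold shared stretches too. These were 6.7% to 9.5% of the 31-base stretches of CSF2RA-205, CSF2RA-206, CSF2RA-208 and CSF2RA-209, found in 4036 to 4156 other genes. In CSF2RA-204 they were 3.5%, found in 116 other genes.

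Over all its transcripts not annotated as coding, CSF2RA had 9.18% and 11.53% of its counts in WT and 25.83% and 22.31% in S1KO. The smallest gap between an S1KO and a WT library was 10.78 points. Both S1KO libraries were thus above both WT libraries by at least 10 points. This held for 2.91% of the 8014 nuclear protein-coding genes with such a transcript and at least 100 counts in each library. The median share over those genes did not move this way, at 10.04% and 12.22% in WT and 8.88% and 10.79% in S1KO. CSF3R held 37.81% and 37.86% in WT and 37.46% and 36.71% in S1KO. CSF1R held 25.17% and 37.86% in WT and 19.74% and 27.26% in S1KO, with overlap. The difference between the groups was 13.72 points for CSF2RA, -0.75 points for CSF3R and -8.02 points for CSF1R. The rise in CSF2RA lay in CSF2RA-211 and CSF2RA-213, which hold the stretches shared with other genes. CSF2RA-211 held 2.3% and 1.8% of the counts in WT and 16.4% and 8.7% in S1KO. CSF2RA-213 held 2.4% and 2.9% in WT and 7.3% and 9.0% in S1KO. CSF2RA-215, also not coding, ran the other way, with 4.4% and 6.6% in WT and 1.9% and 2.6% in S1KO.

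**Figure D4:**
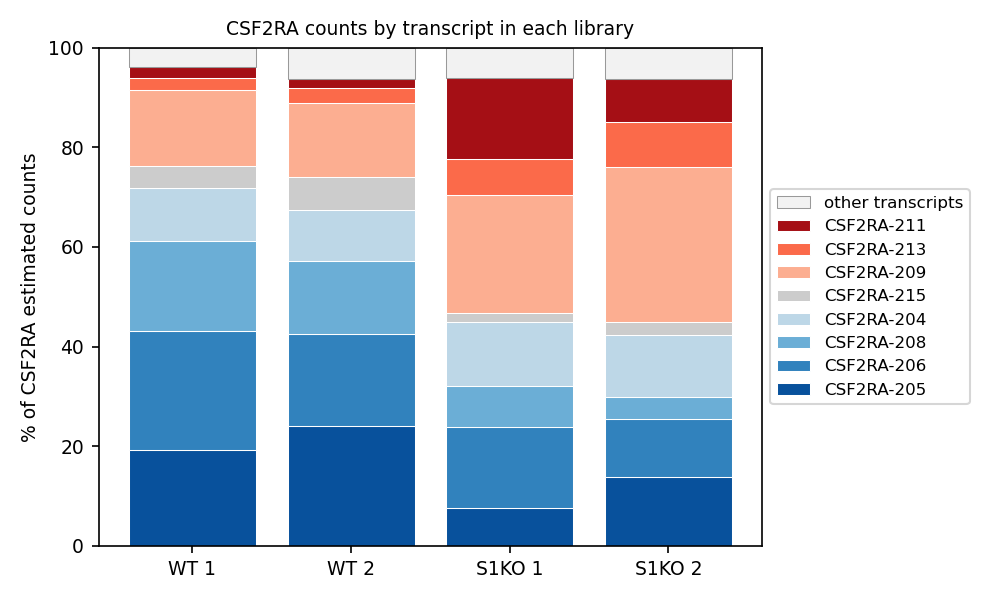
Share of CSF2RA estimated counts (y axis, %) held by each transcript in each library (stacked bars, from 0 to 100). CSF2RA-209, CSF2RA-211 and CSF2RA-213 together hold 19.92% and 19.65% in WT and 47.17% and 48.90% in S1KO. These transcripts were grouped after the data were seen and each has a higher share in S1KO, so the gap in their sum is no independent evidence. CSF2RA-211 and CSF2RA-213 hold stretches shared with other genes.

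CSF3R, the G-CSF receptor (ENSG00000119535, chromosome 1, 36466043 to 36483278, minus strand), is best known from neutrophils but was the third most abundant of the 9 messages here. It was at 256.1 CPM in WT 1, 250.7 CPM in WT 2, 144.2 CPM in S1KO 1 and 203.9 CPM in S1KO 2. The groups did not overlap, with near-equal WT libraries and a wide gap between the S1KO libraries. Means were 253.4 ± 3.79 CPM in WT and 174.1 ± 42.2 CPM in S1KO (SD; n = 2 per group), and the log2 difference was -0.54 (SE 0.21, 95% interval -1.05 to -0.03; adjusted p 0.234, edgeR). It was -0.32 without S1KO 1 and -0.83 without S1KO 2. The neutrophil granule genes ELANE, MPO and PRTN3 were at 0 in every library, and FCGR3B and LTF had at most 1 count. Other markers of that list were detected in every library. S100A9 was at 43.16 to 80.56 CPM, S100A8 at 26.45 to 31.61 CPM and CXCR2 at 3.909 to 10.63 CPM. Lower were S100A12, at 1.222 to 2.617 CPM, CEACAM8, at 0.357 to 1.618 CPM, and AZU1, at 0.638 to 0.876 CPM. The sum of 12 neutrophil markers was 236.2 to 373.9 CPM, most of it CSF3R itself.

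Among the CSF3R transcripts, the main coding form CSF3R-202 was at 128.8 and 137.7 CPM in WT and 62.7 and 88.3 CPM in S1KO. The coding form CSF3R-207 ran the other way, with 3.41% and 1.40% of the counts in WT and 9.29% and 11.40% in S1KO. Its level was 8.73, 3.51, 13.4 and 23.3 CPM in the same library order. The groups did not overlap for either form, and no test was made on single transcripts.

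KIT, the receptor for stem cell factor (ENSG00000157404), was detected in every library at a low level. It stood at 1.251 CPM in WT 1, 7.88 CPM in WT 2, 6.40 CPM in S1KO 1 and 4.75 CPM in S1KO 2. Both S1KO libraries lay between the WT libraries. The log2 difference was 0.28 (SE 0.77, 95% interval -1.57 to 2.13, adjusted p 0.873, edgeR), -0.51 without WT 1 and 2.15 without WT 2. The mast cell genes TPSAB1, CPA3 and CMA1 were at 0 in every library, and the progenitor gene SPINK2 likewise. In the same list of 9 mast cell and basophil markers, HPGDS was at 60.13 to 86.75 CPM and MS4A2 at 0.357 to 1.372 CPM. The 9 summed to 88.42, 96.55, 86.4 and 66.1 CPM in the order WT 1, WT 2, S1KO 1, S1KO 2, most of it HPGDS. The sum of 10 progenitor markers, KIT among them, was 6.15, 15.5, 10.7 and 13.4 CPM.

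FLT3, the receptor of early progenitors and dendritic cells (ENSG00000122025), had 1, 6, 5 and 6 counts in WT 1, WT 2, S1KO 1 and S1KO 2 and was not tested. At this depth no difference could be detected. Its ligand FLT3LG was at 2.82, 2.90, 2.09 and 4.28 CPM, with a log2 difference of 0.16 (adjusted p 0.881, edgeR). The dendritic cell marker FCER1A was at 153.4 CPM in WT 2 and 20.6 to 29.3 CPM in the other libraries. Other markers of that list stood closer: CD1C was at 98.6 CPM in WT 2 and 111.5 to 122.2 CPM elsewhere, and CLEC10A at 66.3 CPM and 45.4 to 56.9 CPM. The sum of 11 dendritic cell markers, FLT3 among them, was 256.3, 406.3, 265.3 and 273.8 CPM in the order WT 1, WT 2, S1KO 1, S1KO 2.

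The ligands of these receptors and the relatives outside the set were mostly at or near 0. Of 11 such genes, 2 passed the filter on low counts, IL5RA and FLT3LG, and neither was called. CSF2, which encodes GM-CSF, had 2 counts in S1KO 1 and 0 elsewhere, CSF3 had 3 counts in S1KO 1 and 0 elsewhere, and IL3 had at most 4. KITLG, which encodes stem cell factor, had 9, 5, 0 and 6 counts. PDGFRB, a relative of CSF1R found on mesenchymal cells, had 283 counts in WT 1 and 9, 2 and 1 in the others, and SDC1, a cell-surface proteoglycan that binds IL34, had 347 in WT 1 and 3, 4 and 3. Both were thus high only in the library with mesenchymal markers, where IL34 also had its counts.

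Downstream of CSF1R, 32 adaptor and turnover genes were tested. Of these, edgeR called 1 higher and 1 lower in S1KO, against 0.793% and 0.149% of all genes tested. The one that fell was INPP5D, the edited gene, with a log2 difference of -2.16 (adjusted p 0.0185, edgeR). UBASH3B, which encodes a tyrosine phosphatase that binds the ubiquitin ligase CBL and dephosphorylates SYK, rose. It was at 16.3 and 16.2 CPM in WT and 52.0 and 40.0 CPM in S1KO, with a log2 difference of 1.503 (SE 0.20, adjusted p 0.0407, edgeR). Its difference was 1.30 without S1KO 1 and 1.67 without S1KO 2. Neither UBASH3B nor INPP5D was called with the replicate number as a block or with protein-coding transcripts only, fits that called 0 genes. The adaptor SHC1 followed, with a difference of -0.69 (adjusted p 0.199, edgeR), which was -0.33 without WT 1 and -0.97 without WT 2. SYK, the kinase that couples to TYROBP, had 0.50 (adjusted p 0.204, edgeR). The median over the 32 was 0.097, and 6 lay below and 10 above without overlap, against 25.7% and 26% of all genes.

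In the JAK-STAT arm used by CSF2RB, none of 16 genes was called, and the median was -0.08, against -0.015 for all genes. The S1KO libraries lay below without overlap in 3 of the 16 and above in 6, against 25.7% and 26% of all genes. JAK1, a cytokine receptor kinase, had a log2 difference of 0.55 (adjusted p 0.169, edgeR), and of 0.65 without WT 2. The STAT targets OSM, a cytokine gene, and PIM1, a survival kinase gene, had -2.04 (adjusted p 0.182) and -0.56 (adjusted p 0.249). Both depended on which WT library was kept. OSM was at 3.93 and 13.2 CPM in WT, and its difference was -2.65 without WT 1 and -0.91 without WT 2. That of PIM1 was -0.81 without WT 1 and -0.24 without WT 2. JAK2, the kinase bound to CSF2RB, was named after its values were seen: its WT libraries were at 35.8 and 47.2 CPM and its S1KO libraries, at 39.7 and 38.2 CPM, lay between them.

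Among 13 transcription factors that act on the CSF1R promoter or its intronic FIRE enhancer, none was called by edgeR, while DESeq2 called 3, against 7.58% of all genes. The median log2 difference was -0.54, with 7 below and 2 above without overlap, against 25.7% and 26% of all genes. JUN, an AP-1 subunit, was at 104.8 and 157.8 CPM in WT and 51.5 and 55.9 CPM in S1KO, with a log2 difference of -1.29 (adjusted p 0.064, edgeR). It was -1.55 without WT 1 and -0.96 without WT 2. CEBPB had -1.21 (adjusted p 0.173) and EGR2 had -2.51 (adjusted p 0.176), and in both WT 2 was far above WT 1, with EGR2 at 6.86 and 44.6 CPM. Without WT 1 they had -1.70 and -3.31, and without WT 2 -0.45 and -0.60. Each such fit has a single WT library, so only the differences are given. SPI1, which encodes PU.1, and RUNX1 were named after their values were seen. SPI1 was at 690.1, 1050.3, 699.3 and 685.2 CPM, with overlap. RUNX1 was at 28.8, 22.2, 17.7 and 15.9 CPM. The difference of RUNX1 was -0.61 (adjusted p 0.205, edgeR), -0.41 without WT 1 and -0.77 without WT 2.

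The proteases that shed CSF1R and cut its remaining stub had lower values in S1KO without any being called by edgeR, while DESeq2 called 3, where it called 3.31% of all genes lower. All 10 genes had log2 differences below 0, where 51.2% of all genes did, and in 9 of 10 the S1KO libraries lay below the WT libraries without overlap, against 25.7% of all genes. The median was -0.584. PSENEN and NCSTN, subunits of gamma-secretase, had -0.78 (adjusted p 0.116) and -0.65 (adjusted p 0.130) by edgeR. ADAM10, a sheddase, had -0.64 (adjusted p 0.120), at 47.9 and 52.6 CPM in WT and 31.9 and 32.7 CPM in S1KO. Without WT 1 these 3 had -0.76, -0.67 and -0.70. The list was chosen with earlier results of these libraries known, so its direction is no independent evidence.

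On the TPM scale more of the genes were called, and all in 1 direction. With limma on log2(TPM + 1), 3 of the 7 were called lower in S1KO and none higher, where 18% of all genes were called lower. The S1KO libraries lay below the WT libraries without overlap in 4 of the 7 on TPM, as in 71% of all genes. The whole distribution moved on that scale: the median log2 difference was -0.783, and 133 genes were called higher and 2763 lower, against 122 and 23 by edgeR. CSF1R was at -1.75 (adjusted p 0.00814), CSF2RB at -1.40 (adjusted p 0.0413) and CSF3R at -1.40 (adjusted p 0.0318), so each lay below 0 by more than the median of all genes. CSF2RA kept its direction in 18 of 18 alternative analyses, and CSF1R, CSF2RB and CSF3R in 17 of 17 each. CSF1 kept it in 16, KIT in 14 and IL3RA in 12 of 17.

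**Figure D5:**
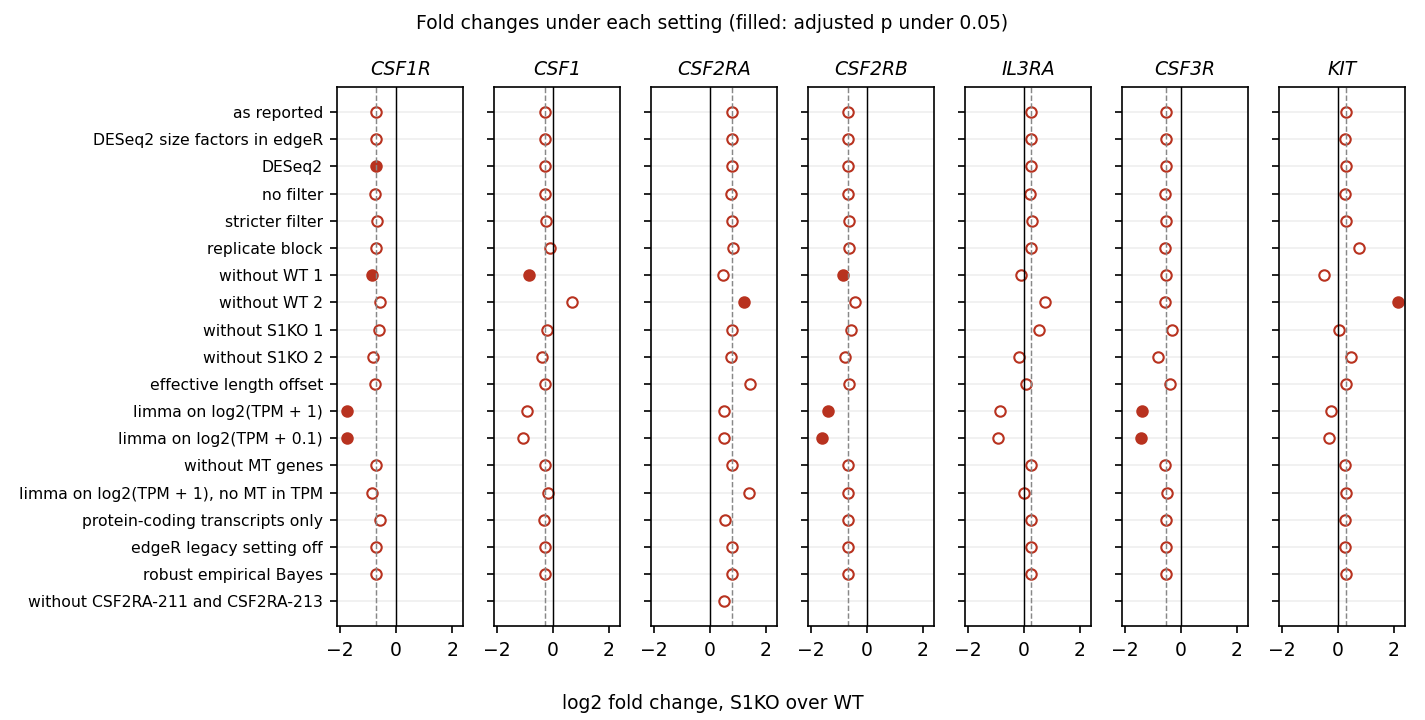
Log2 difference, S1KO minus WT (x axis), of the 7 genes tested (panels) under each analysis (rows); filled points passed an adjusted p of 0.05 and the dashed line is the value reported. CSF1R, CSF2RB and CSF3R stay below 0 and CSF2RA above 0 in all rows, while CSF1, IL3RA and KIT change sign. Rows with a library left out take the spread from the other group, so their filled points are no guide to significance.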

How the data were processed

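Poly-A RNA of 2 WT and 2 S1KO iMGL libraries was sequenced as paired reads of 150 bp, per the labels' protocols. Per the submitters' processing notes, the authors used kallisto and the build hg38; the sources used here give neither its version nor the transcript set. The deposited files hold, per the file headers, estimated counts and TPM per transcript, with lengths. TPM divides by effective length and by the library total, so a larger mitochondrial share lowers the TPM of other genes.

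With GENCODE 29, 169797 of 188753 transcripts were matched by identifier and 15521 by symbol; 3435 without a gene name (0.323% to 0.643% of counts) were left out. Gene sums of estimated counts were rounded, kept by filterByExpr (15388 of 35605 genes), scaled by TMM (factors 0.653 to 1.313) and tested with edgeR 4.0.16 in R 4.3.3 (glmQLFTest, two-sided, Benjamini-Hochberg, 0.05), with genotype as the only term; the common biological coefficient of variation was 0.29. The step was tested on simulated data. CPM values carry no prior count. Alternatives used DESeq2 1.42.0, limma 3.58.1, other filters, scalings, dispersions and transcript sets, the replicate number as a block, and each library left out. Ratios, sums of CSF2RA transcripts, the share outside coding transcripts and CSF2RA without CSF2RA-211 and CSF2RA-213 were chosen after seeing the data. The members and gene lists were chosen with earlier results of these data known. Named were the 9 members, list genes past the threshold and up to 4 of smallest p per list, the 5 nearest CSF1R, markers, and transcripts with 10% or more of a gene's counts, of which some are left out here; any other is marked as chosen later or shows a library that stands apart.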

Additional observations from a re-analysis of the deposited data

How the results depend on the processing

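Against 145 genes called, DESeq2 called 1167 (657 higher, 510 lower), no filter 1362, a stricter filter 224, robust empirical Bayes 305, limma on log2(TPM + 1) 2896 and on log2(TPM + 0.1) 2642, protein-coding transcripts only 0 (2263 at an unadjusted p under 0.05), and leaving out 1 library 0 to 2183 (1977 without WT 1, 2183 without WT 2, 0 without S1KO 1 or S1KO 2, with 1174 and 1641 at an unadjusted p under 0.05). Where 1 library is left in a group, its spread is taken from the other group. The replicate block called 0 genes (2892 at an unadjusted p under 0.05) and 0 adaptor genes; numbers are not known to pair libraries, and the deviations of same-numbered libraries had a correlation of 0.025.

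CSF1R was at -0.73 by DESeq2 (adjusted p 0.00566). With limma on log2(TPM + 1) and log2(TPM + 0.1), CSF1R was at -1.75 and -1.76 (adjusted p 0.00814 and 0.00969), CSF2RB at -1.40 and -1.59 (0.0413 and 0.0386) and CSF3R at -1.40 and -1.41 (0.0318 and 0.0351); IL3RA was at -0.84 with a pseudocount of 1, -0.91 with 0.1 and -0.0086 on TPM without mitochondrial genes, and KIT at -0.23 and -0.31. Leaving out 1 library gave ranges of -0.85 to -0.58 for CSF1R, -0.86 to 0.67 for CSF1, 0.45 to 1.22 for CSF2RA, -0.86 to -0.43 for CSF2RB, -0.83 to -0.32 for CSF3R, -0.17 to 0.75 for IL3RA and -0.51 to 2.15 for KIT. Of the named genes, FLT3LG reversed without S1KO 2 (-0.47 to 0.57 over the libraries left out) and on TPM (-0.67, -0.90 and -0.013 without mitochondrial genes), SYK (-0.45, -0.46) and JAK1 (-0.39, -0.41) on TPM, ARGLU1 with protein-coding transcripts (0.29) and SPI1 without WT 2 (-0.60 to 0.0095 over the libraries left out).

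List medians on log2(TPM + 1) and log2(TPM + 0.1) were -0.725 and -0.777 for the adaptors, -0.965 and -1.1 for JAK-STAT, -1.25 and -1.433 for the transcription factors and -1.397 and -1.516 for shedding. With 1 library left out they were 0.033 to 0.23, -0.246 to 0.22, -0.619 to -0.072 and -0.664 to -0.401 in that order, and the counts called were 0 to 6, 0 to 4, 0 to 7 and 0 to 4. Counts called on the 2 TPM scales were 4 and 4, 3 and 3, 6 and 6, and 5 and 6. Adaptor calls were 1 on TPM without mitochondrial genes and 0 with protein-coding transcripts only. DESeq2 and no filter each called 1 JAK-STAT gene, 3 and 4 transcription factors, and 3 and 1 shedding genes. Transcription factor calls were 1 with a stricter filter, 1 with edgeR's legacy setting off and 2 with robust empirical Bayes. The CSF2RA to CSF2RB log2 difference was 2.12 on TPM, and the share outside coding transcripts differed by 19.5 points of TPM. The cause of these differences was not tested. Depth limits IL34, FLT3 and the cytokine genes.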
